A study of Homo sapiens with 6 samples.

Results

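The integrin and laminin genes encode, in turn, adhesion receptors and a class of matrix proteins that some of these receptors bind. They were taken by symbol as the alpha and beta chain genes of the integrins (ITGA and ITGB) and the alpha, beta and gamma chain genes of the laminins (LAMA, LAMB and LAMC). Of 19792 genes listed for the series, 35 were found by this rule, comprising 16 integrin alpha, 8 integrin beta and 11 laminin genes. The authors' mean normalized count over all libraries was 10 or more for 23 of the 35 genes. ITGA8, ITGAL and LAMA1 belong to the same families and were not analysed here.

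The data are 6 RNA-seq libraries of BT-549/tet-WDR5shRNA cells, of which 3 came from cells treated with vehicle (0.1% DMSO) and 3 from cells treated with 500 ng/ml doxycycline (DOX). BT-549 is an established human triple-negative breast cancer (TNBC) cell line. The cells carried an shRNA against WDR5, a core subunit of the COMPASS H3K4 methyltransferases, in a puromycin-selected vector that DOX switches on, and both groups carried it. The values used here are the authors' mean of the normalized counts over all 6 libraries, given without an error, so the comparison of DOX with vehicle that the design implies was not tested here and the level of WDR5 in each group was not checked. A mean over both groups does not tell a gene with equal levels in both from a gene present in 1 of them. In RNA from whole cultures, fewer cells with a transcript and less transcript per cell cannot be told apart.

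Integrins are cell surface receptors made of 1 alpha and 1 beta chain. The pair of chains sets the ligand, such as laminin, collagen or matrix proteins with an RGD motif. The cytoplasmic tail of most beta chains recruits talin and kindlin, which link the receptor to actin. Laminins are trimers of 1 alpha, 1 beta and 1 gamma chain. They are part of the basement membrane beneath epithelia, endothelia and around muscle and nerve, and the alpha chain carries the site that integrins bind.

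Promoter sequences from RefSeq (GRCh38.p14) are shown first, because the genes ranged from very high to nearly silent and their promoters differed in CG content. Each stretch holds the 250 bases before the start of the gene, read 5′ to 3′ on the gene's strand, and none shares a base with an annotated exon. The first 3 are LAMC1, the second highest of the 35 genes, ITGA11, which lay just above a mean normalized count of 10, and LAMB4, among the lowest. Capitals mark CG dinucleotides. LAMC1 is at chr1:183023170-183023419 on the plus strand, ITGA11 at chr15:68432164-68432413 on the minus strand and LAMB4 at chr7:108130362-108130611 on the minus strand.
LAMC1: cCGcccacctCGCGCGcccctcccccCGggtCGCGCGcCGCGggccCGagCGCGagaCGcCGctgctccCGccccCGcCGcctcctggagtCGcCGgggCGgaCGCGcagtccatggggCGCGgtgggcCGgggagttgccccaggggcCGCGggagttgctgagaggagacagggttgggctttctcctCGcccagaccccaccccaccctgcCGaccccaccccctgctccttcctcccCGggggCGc
ITGA11: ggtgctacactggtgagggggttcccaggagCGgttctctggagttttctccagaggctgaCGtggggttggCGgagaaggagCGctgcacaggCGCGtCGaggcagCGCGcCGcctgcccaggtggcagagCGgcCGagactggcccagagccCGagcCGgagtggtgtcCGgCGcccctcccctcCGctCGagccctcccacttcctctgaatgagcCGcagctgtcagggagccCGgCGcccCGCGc
LAMB4: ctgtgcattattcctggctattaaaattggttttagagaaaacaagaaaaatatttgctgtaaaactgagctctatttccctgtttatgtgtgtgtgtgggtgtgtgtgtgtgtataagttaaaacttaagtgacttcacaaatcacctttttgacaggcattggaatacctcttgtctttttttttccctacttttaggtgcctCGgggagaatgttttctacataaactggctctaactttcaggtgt

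The other pair is shown for the motifs it holds. In LAMA3 (chr18:23872770-23873019, plus strand, before a start inside the gene) capitals mark 2 matches to TGANTCA, the letters of an AP-1 type element. In ITGA6 (chr2:172427086-172427335, plus strand) capitals mark TATAAA, the letters of a TATA box, read on the opposite strand as TTTATA.
LAMA3: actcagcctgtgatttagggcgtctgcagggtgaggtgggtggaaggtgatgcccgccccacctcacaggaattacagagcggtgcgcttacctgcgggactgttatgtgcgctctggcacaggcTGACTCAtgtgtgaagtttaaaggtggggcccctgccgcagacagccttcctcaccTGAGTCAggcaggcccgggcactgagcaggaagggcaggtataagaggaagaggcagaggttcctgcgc
ITGA6: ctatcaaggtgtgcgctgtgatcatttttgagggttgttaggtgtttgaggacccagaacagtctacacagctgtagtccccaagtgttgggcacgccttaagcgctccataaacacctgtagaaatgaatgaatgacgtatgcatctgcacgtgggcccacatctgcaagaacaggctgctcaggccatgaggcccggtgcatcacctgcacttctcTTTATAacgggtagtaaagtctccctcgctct

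ITGB1, the beta chain of 12 of the 24 known integrin pairs, had the highest mean normalized count of the 35 genes. Its mean normalized count was 55065.6, higher than 99.9% of all genes listed. LAMC1 encodes the gamma chain of most laminins and had a mean normalized count of 18911.2. The laminin beta chain LAMB1 was at 11584.8 and ITGA3, the alpha chain of a laminin receptor, at 8492.27. The 4 highest counts, in which longer transcripts weigh more, thus belonged to a common integrin beta chain, a laminin-binding alpha chain, and the beta and gamma chains of a laminin. ITGB1 lies on the minus strand of chromosome 10 (GRCh38, 32887273 to 33005792), LAMC1 on the plus strand of chromosome 1 (183023420 to 183145592), LAMB1 on the minus strand of chromosome 7 (107923799 to 108003213) and ITGA3 on the plus strand of chromosome 17 (50055968 to 50090481).

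As a group, the genes spread over the whole range of expression. The mean normalized count was 10 or more for 65.7% of the 35 genes, beside 68.5% of all 19792 genes, and the median was 173.6, beside 187.2 over all genes. It was 1000 or more for 14 of the 35, beside 27.9% of all genes. The minimum of 10 was met by 9 of 16 integrin alpha, 5 of 8 integrin beta and 9 of 11 laminin genes. Just above the minimum lay ITGA11 at 11.4 and just below it ITGA2 at 9.97, both collagen receptor chains. Together the 35 genes held 0.474% of the summed mean normalized counts of all genes.

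**Figure D1:**
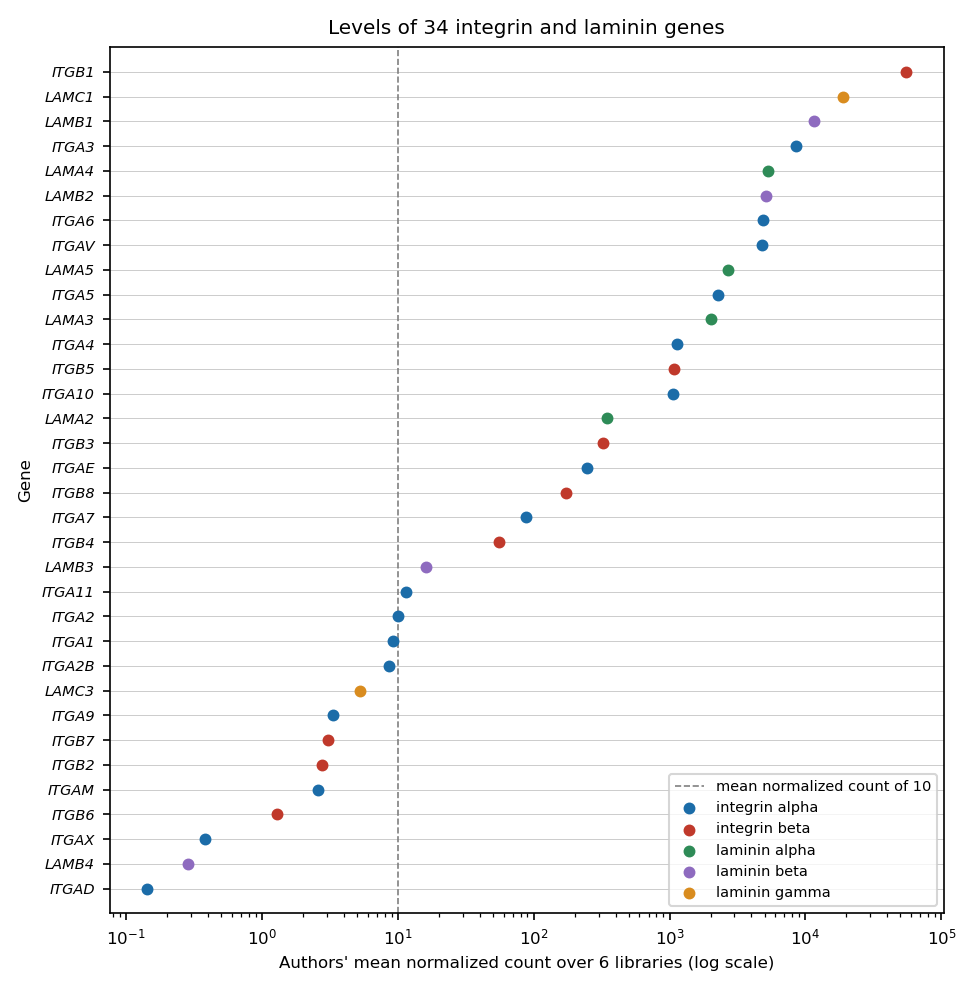
Mean normalized count over 6 libraries on a log axis, 1 point for each of 34 genes, coloured by chain type, with the minimum of 10 as a dashed line. The points run from 0.144 for ITGAD to 55065.6 for ITGB1, and 22 of those drawn lie at or above the line.

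Ratios and shares between genes were computed per length, as the mean normalized count divided by the kilobases of the gene's longest annotated transcript, whereas the minimum of 10 applies to the count itself. On this scale ITGB1 stood at 9809, LAMC1 at 2385, LAMB1 at 1720, ITGA3 at 1550 and LAMB2 at 899. ITGA6 (843), LAMA4 (732), ITGAV (599), ITGA5 (457) and ITGB5 (244) completed the 10 highest. The level of ITGB1 per kilobase was 4.11 times that of LAMC1 and 6.33 times that of ITGA3. With the median transcript length, which short annotated transcripts set for many genes, ITGB1 was below LAMC1, at 0.568 times its level, and 1.22 times that of ITGA3. These values have no replicate error, so the order of genes with close levels was not tested.

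The integrin beta chains were dominated by ITGB1, which held 96.8% of the beta chain level per kilobase. ITGB5 had a mean normalized count of 1085.04 and was 40.1 times lower than ITGB1 per kilobase (10.5 times by median length). ITGB3, which partners ITGAV in the classical vitronectin receptor, had a mean normalized count of 321.9. ITGB8, whose pair with ITGAV binds latent TGF-β, was at 173.6 and ITGB4, the hemidesmosome chain of epithelia, at 55.6. The remaining beta chains were under 10, with ITGB7 at 3.07, ITGB2 of leukocytes at 2.77 and ITGB6, an epithelial partner of ITGAV, at 1.29.

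Among the alpha chains, the laminin receptors were highest. ITGA3, ITGA6 and ITGA7, the laminin-binding chains, had mean normalized counts of 8492.27, 4904.81 and 88.3, and together held 61.7% of the alpha chain level per kilobase. ITGA3 alone held 39.6% and ITGA6 21.5% (11.3% by median length). Of the chains that recognize RGD ligands, ITGAV (4762.74) held 15.3% and the fibronectin receptor chain ITGA5 (2281.54) held 11.7%. By median length the order of this pair turned, with 3.38% for ITGAV and 18.9% for ITGA5. ITGA2B, the RGD-binding chain of platelets, was at a mean normalized count of 8.56.

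The collagen receptor chains differed widely in level. ITGA10, a collagen receptor chain described in cartilage, had a mean normalized count of 1063.07, while ITGA11, ITGA2 and ITGA1 lay between 9.19 and 11.4. These 4 chains held 5.37% of the alpha chain level per kilobase, of which ITGA10 accounted for 5.29%, and 1.79% by median length, of which ITGA10 accounted for 1.68%. ITGA4, which binds fibronectin and VCAM1, was at 1135.31, while the related chain ITGA9 was at 3.32. ITGAE, known as the alpha chain of intraepithelial lymphocytes, was at 244.7, whereas ITGAM, ITGAX and ITGAD, the alpha chains of myeloid cells, were at 2.58, 0.383 and 0.144.

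Levels were next read by the pairs that the chains are known to form. Of 24 known integrin pairs, 22 had both chains listed and 12 had both at a mean normalized count of 10 or more. ITGB1 was in 8 of these 12, with ITGA3, ITGA4, ITGA5, ITGA6, ITGA7, ITGA10, ITGA11 and ITGAV. The other 4 were ITGAV with ITGB3, ITGB5 and ITGB8, and ITGA6 with ITGB4. By the level per kilobase of the lower chain, ITGA3-ITGB1 stood first at 1550, followed by ITGA6-ITGB1 at 843, ITGAV-ITGB1 at 599 and ITGA5-ITGB1 at 457. ITGA3 stood above the other alpha chains of these pairs with each length tried, but their order behind it did not hold. By coding length ITGAV (1515) was above ITGA6 (1447), and by median length ITGA5 (3880) came next, with ITGA6 at 2319 and ITGAV (695) below ITGA4 (992).

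The chains of a pair were often far apart in level. The alpha chains that pair with ITGB1 summed to 39.2% of ITGB1 per kilobase, which became 139.3% when the median transcript length replaced the longest. ITGAV was at 5.92% of the summed level per kilobase of its beta partners, ITGB1 included, and ITGB3, ITGB5 and ITGB8 together reached 53.1% of ITGAV, or 225.7% by median length, where ITGB5 alone exceeded ITGAV. ITGA6 exceeded ITGB4 by 89.5 times per kilobase (142.3 times by coding and 39.6 times by median length), and ITGAE exceeded ITGB7, its only known partner, by 58.9 times. In the 3 pairs with ITGB2 that were listed, both chains were under 10.

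**Figure D2:**
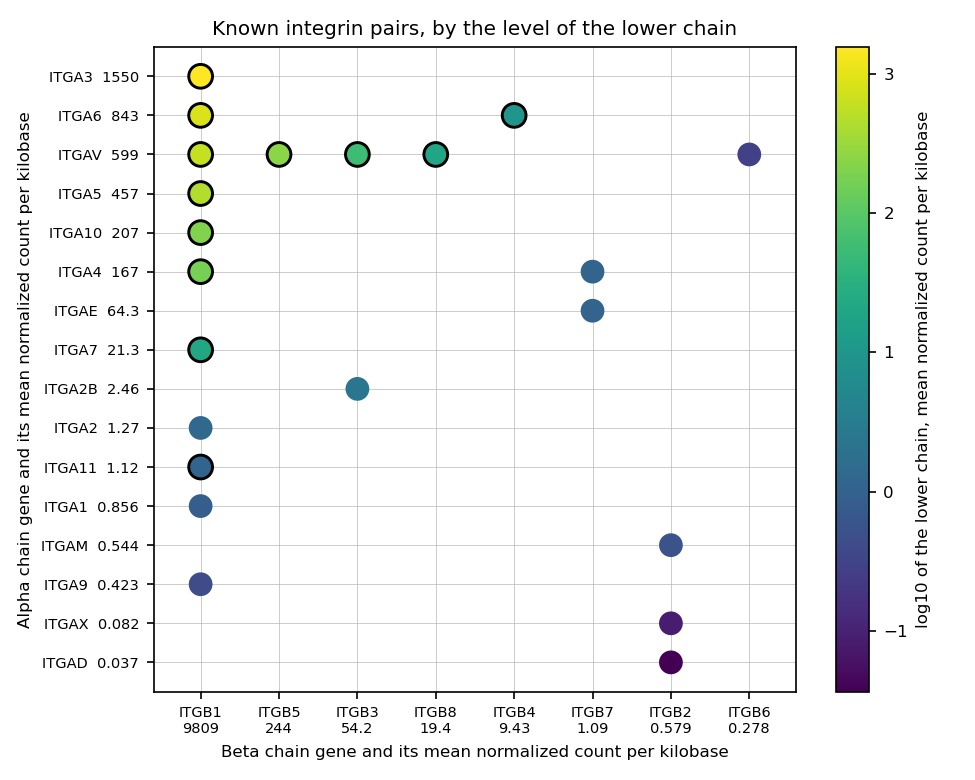
Known integrin pairs at the crossing of their alpha chain (vertical axis) and beta chain (horizontal axis), with each chain's mean normalized count per kilobase beside its name and the colour giving the lower chain on a log10 scale. Black rims mark the 12 pairs with both chains at 10 or more in mean normalized count, of which 8 lie in the ITGB1 column.

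For the laminins, all 4 alpha chains listed passed the minimum. LAMA4, the alpha chain known from endothelial and mesenchymal basement membranes, had a mean normalized count of 5293.29 and held 61.4% of the laminin alpha level per kilobase. LAMA5, widespread in epithelia, was at 2686.07 (19.7%), LAMA3, best known from skin, at 2026.31 (16.0%) and LAMA2, the alpha chain of muscle, at 346.2 (2.91%). By median length LAMA5 held 30.4%, LAMA3 8.60% and LAMA2 1.25%, in the same order. The alpha chains summed to 1192 per kilobase, beside 2385 for LAMC1.

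The beta and gamma chains were carried by few genes. LAMB1 held 65.6% and LAMB2, at a mean normalized count of 5116.05, held 34.3% of the laminin beta level per kilobase. With the median transcript length LAMB1 held 24.2% and LAMB2 75.8%, so which of them stood higher turned on the length used. The summed level of LAMB1 and LAMB2 was 109.8% of that of LAMC1, but 79.4% by coding and 45.4% by median length. LAMC1 held 99.1% of the gamma chain level per kilobase. LAMC3 was at 5.26, and LAMB3 at 16.2.

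Of 15 known laminin trimers, 13 had all chains listed and 10 had all chains at a mean normalized count of 10 or more. Per kilobase, the lowest chain was LAMA4, at 732, in its trimers with LAMC1 and either LAMB1 or LAMB2, and it was LAMA5, at 235, in the corresponding trimers of LAMA5. The lowest chain depended on the length for all of these but the LAMA5-LAMB2-LAMC1 trimer. By median length LAMB1 was lowest in both trimers that hold it, and by coding length, as by the count itself, LAMB2 was below LAMA4.

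**Figure D3:**
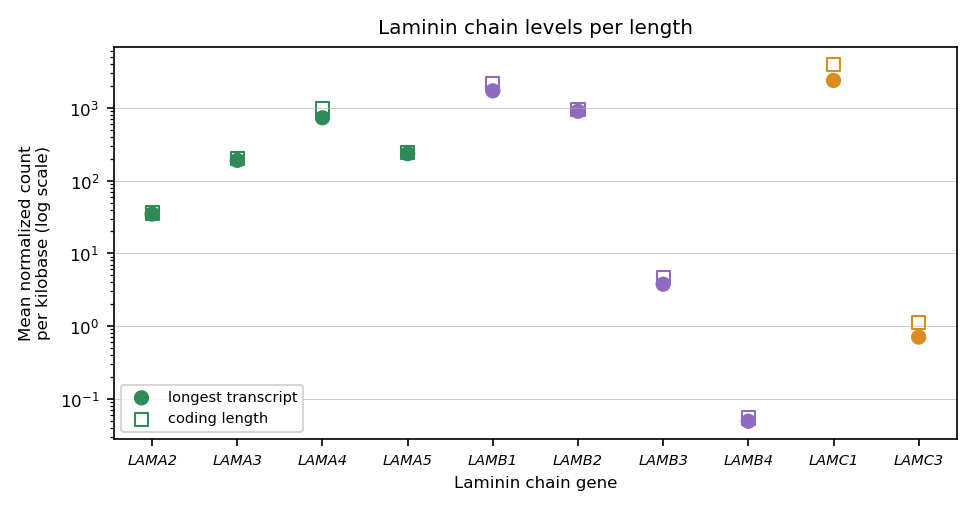
Level of 10 laminin chain genes on a log axis, as mean normalized count per kilobase of the longest transcript (filled) and of coding sequence (open). LAMC1, LAMB1, LAMB2 and LAMA4 stand highest on both scales, and LAMB4 lowest.

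The reads of the lowest genes were recovered from the mean itself. A count of 1 read in 1 library adds a fixed step to the mean that depends on that library's size factor, the number by which the authors' normalization divided its counts. The 6 steps gave size factors from 0.737 to 1.34, a range of 1.82 times. For each of the 14 genes whose mean normalized count was under 20, exactly 1 set of whole reads fitted the mean, within 1e-11. The libraries are named by their size factor only, since the steps do not say which group each belongs to, and no test was made on them.

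LAMB3 had 96 reads, with 18, 10, 21, 16, 16 and 15 in the libraries from the largest size factor to the smallest. The reads of LAMB3 were spread over all 6 libraries. ITGA11 had 71 reads, with 19, 10, 12, 12, 13 and 5 in the same order. ITGA2, a receptor for collagen on epithelia and platelets, had 66 reads, with 19, 21, 8, 10, 5 and 3. ITGA1, its neighbour on chromosome 5, had 62 reads, with 21, 15, 8, 14, 2 and 2. The reads of both ITGA1 and ITGA2 were fewest in the 2 libraries with the smallest size factors. They differed between libraries by more than the 1.82-fold range of the size factors, as did those of LAMB3 and ITGA11. Counting error adds to the spread of counts this small, and no difference between libraries was tested.

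ITGA2B had 49 reads, from 6 to 10 in each library, and LAMC3 had 32, from 1 to 8. ITGA9 and ITGB7 had 18 reads each, ITGB2 had 18 and ITGAM had 17, with at most 6 reads in any library. ITGB6 had 8 reads, found in 5 of 6 libraries. These levels rest on few reads, and counting error alone makes them imprecise. ITGAX had 2 reads in 2 libraries, LAMB4 had 2 reads in 1 library and ITGAD had a single read. At the other end, the mean of ITGB1 stands for between 243391 and 444061 reads over the 6 libraries, and that of LAMC1 for between 83587 and 152504.

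**Figure D4:**
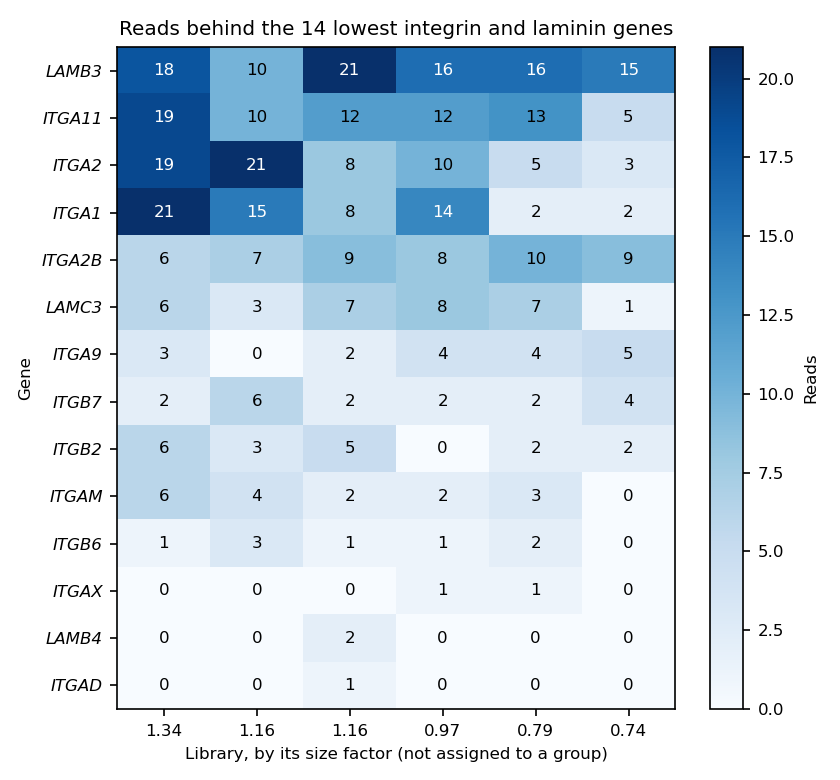
Reads in each of 6 libraries (columns, named by size factor and not assigned to a group) for the 14 genes whose mean normalized count was under 20 (rows), with darker cells for more reads. ITGA1 and ITGA2 run from 21 reads down to 2 and 3, while ITGA2B stays between 6 and 10.

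Several of the genes lie side by side in the genome. LAMB1 and LAMB4 are 20.3 kb apart on chromosome 7 with no protein-coding gene between them, at mean normalized counts of 11584.8 and 0.288. A highly expressed laminin chain thus lies beside one that is nearly silent. In contrast, ITGA1 and ITGA2, 30.1 kb apart on chromosome 5, were both just under 10, and ITGAM, ITGAX and ITGAD, which follow each other on chromosome 16 at distances of 22.2 and 10.3 kb, were all under 3. ITGA1 contains PELO, a ribosome rescue gene on the same strand with a mean normalized count of 903.1. ITGB3 overlaps a second protein-coding annotation on its strand. The overlaps are of whole gene spans. Whether exons are shared was not checked, and how reads there were counted is not known. Other protein-coding genes overlap on the opposite strand, and the strand setting of the counting is not given in the sources used here. HASPIN (505.6) at ITGAE, GALK1 (150.5) at ITGB4 and ZNF740 (1774.89) at ITGB7 were higher than the integrin gene. DLD (3340.03) at LAMB1, ADRM1 at LAMA5, CERKL at ITGA4, and METTL7B and BLOC1S1 at ITGA7 were lower than the gene they overlap. What such overlaps added to any level was not tested.

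Promoters were matched for 25 of the 35 genes. The median number of CG dinucleotides in the 250 bases was 12 in the 13 genes at a mean normalized count of 1000 or more, 9 in the 5 genes from 10 to 1000, and 2 in the 7 genes under 10. Over all genes listed with a promoter, the medians were 22, 20 and 7, and over all 27305 promoters the median was 11. ITGB1, LAMC1 and LAMA5 each held 32 CG dinucleotides and LAMB1 held 28, whereas LAMB4 held 1 and ITGB6 none. A relation of CG number to level was not tested, and several of the 25 genes went the other way. ITGA10 held 1 at a mean normalized count of 1063.07, LAMA4 held 5 at 5293.29 and ITGA6 held 8 at 4904.81. In turn, ITGA2 held 26 at 9.97, ITGA11 held 23 at 11.4 and ITGA1 held 16 at 9.19. Some genes have several listed starts, of which the first was used, and no start was measured in these cells.

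**Figure D5:**
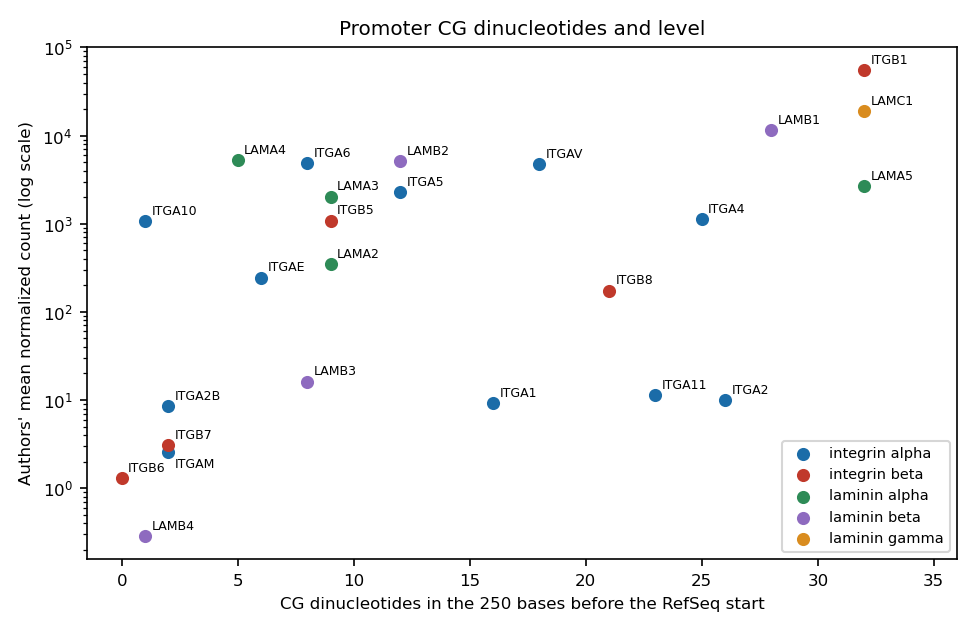
CG dinucleotides in the 250 bases before the start (horizontal) against the mean normalized count on a log axis (vertical), 1 point for each of 25 genes. ITGB1, LAMC1 and LAMB1 lie at the upper right, ITGB6 and LAMB4 at the lower left, ITGA2 and ITGA11 at the lower right, and ITGA1 at the lower middle.

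Motif letters were searched on both strands of the same stretches. GGGCGG, the letters of a GC box, was in 12 of the 25 promoters (48.0%), beside 42.3% of all promoters. Split at 1000 or more, 10 to 1000 and under 10, it was in 61.5%, 40% and 28.6% of these genes. Over all genes listed with a promoter, the shares were 69.8%, 65.9% and 40.5%, higher at each level. TATAAA was in 1, that of ITGA6, where it lies 32 bases before the start, beside 11.1% of all promoters. TGANTCA was in 1, that of LAMA3, beside 6.596% of all promoters, with the matches TGACTCA and TGAGTCA beginning 125 and 69 bases before the start. At the same levels over all genes listed, TATAAA was in 4.98%, 5.53% and 12.1%, and TGANTCA in 3.74%, 3.77% and 7.77%. GGGCGG holds a CG itself and so overlaps the CG count.

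Genes listed as integrin activators and adaptors, which include proteins that link integrins to actin, were read in the same way. Of 26 integrin activators and adaptors listed, 24 (92.3%) had a mean normalized count of 10 or more, beside 68.5% of all genes. At 1000 or more were 61.5%, beside 27.9% of all genes. Per kilobase the 5 highest were the actin crosslinker FLNA (8120), the alpha-actinins ACTN4 (3677) and ACTN1 (2400), the focal adhesion protein ZYX (1809) and TLN1 (1541), the talin that binds the beta chain tail. The kindlin FERMT2 had a mean normalized count of 7276.25, while FERMT3, the kindlin of blood cells that activates ITGB2 and ITGB3 integrins, was at 3.55. TNS1 was the other gene of this list under 10, at 4.75.

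Of 20 other basement membrane and laminin-binding genes, 18 (90%) reached a mean normalized count of 10, beside 68.5% of all genes. The highest per kilobase were the proteoglycan SDC4 (2496), the collagen IV chains COL4A2 (2494) and COL4A1 (1684), the tetraspanin CD151 (1221), which associates with ITGA3, and the laminin receptor DAG1 (1126). COL4A3 and COL4A4, which share a trimer in the kidney, were the 2 genes under 10, at 5.38 and 9.55. NID1, which bridges laminin to collagen IV, was at a mean normalized count of 966.2.

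Of 26 integrin ligands, 21 (80.8%) reached a mean normalized count of 10, beside 68.5% of all genes. Per kilobase the highest were the collagen chains COL1A2 (4103) and COL3A1 (3465), fibronectin FN1 (3321), and the matricellular proteins CCN1 (3172) and CCN2 (1829). FN1 thus stood above each alpha chain of its receptors, ITGA5 (457), ITGAV (599) and ITGA4 (167), on the scale per kilobase. VCAM1, a ligand of ITGA4, was at a mean normalized count of 17.7, and CDH1, the ligand of ITGAE with ITGB7, was at 59.6. Vitronectin (VTN), osteopontin (SPP1) and MADCAM1, the ligand of ITGA4 with ITGB7, were at 3.43, 6.35 and 0.172. Of the 5 highest genes named for the adaptors, the basement membrane genes and the ligands, 3, 4 and 4 stayed among the 5 highest by coding length, and 4, 3 and 3 by median length.

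Markers of cell types were read to check the label and the chains known from other cells. All 9 mesenchymal markers had mean normalized counts between 374.1 and 47782.1, with VIM highest. Of 10 epithelial markers, 6 (60%) were at 10 or more, beside 68.5% of all genes. The highest of them was KRT18 at 434.9, while EPCAM was at 1.30. Of 7 leukocyte markers listed, 3 (42.9%) were at 10 or more, namely CORO1A (96.6), PTPRC (44.7) and CD14 (24.02), and SPI1 was at 0.143. Of the leukocyte chains listed, ITGB2, ITGB7, ITGAM, ITGAX and ITGAD were at 3.07 or less, whereas ITGAE, at 244.7, was above all 3 of these markers. None of 4 platelet markers exceeded 2.19, beside 8.56 for ITGA2B, and of 6 endothelial markers TEK (23.9) alone was at 10 or more. What part such transcripts had in the level of any integrin or laminin gene was not tested.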

How the data were processed

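RNA-seq was analysed from 3 vehicle and 3 DOX libraries of BT-549/tet-WDR5shRNA cells. Per the labels and the paper's methods, the authors prepared stranded poly(A) libraries from triplicate cultures, aligned reads to GRCh38 with STAR and normalized gene counts with DESeq2. The gene counter is not given in the sources used here. The deposited values used are a signal, the authors' normalized counts averaged over all 6 libraries. The table's other columns hold the authors' own comparison (log2 fold change, standard error, statistic, p-value and adjusted p-value) and were not used. No columns of single libraries were analysed, so no depth per library, error or test is given, and the count test planned for that case was not run.

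Levels were divided by transcript lengths of GENCODE 44. Of 19792 symbols, 17729 matched directly, 594 through a RefSeq synonym and 1469 did not match. Whole reads were recovered from the 6 steps of the mean, which was tested on simulated data and, for all 4150 genes under a mean of 2, gave exactly 1 set of reads. The genes and lists were chosen with earlier results of these data known. All genes of the rule at or above 10 are named but 1, which is not reported here, those nearest below it too, and the 5 highest per kilobase of the adaptor, basement membrane and ligand lists plus genes that pair directly with a named one. Other genes are named as examples chosen after their values were seen. Marker lists are given by count and range. Alternatives were other minimums and other lengths. Protein sequences were not used here. Computation used Python 3.11.15, numpy 2.4.6, pandas 2.3.3 and matplotlib 3.10.9.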

Additional observations from a re-analysis of the deposited data

How the results depend on the processing

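With no minimum, 35 genes, 22 integrin pairs and 13 laminin trimers entered the counts. Minimums of 50 and 100 left 21 and 19 genes, 11 and 9 pairs, and 9 and 9 trimers. The alpha chains that pair with ITGB1 summed to 31.67% of ITGB1 by coding length, 139.3% by median transcript length, 41.34% without a length and 28.44% by the Ensembl canonical transcript, a length chosen after seeing the data. In the same order, ITGAV was at 6.611%, 4.329%, 8.408% and 4.492% of its beta partners, and LAMB1 held 69.4%, 24.16%, 69.3% and 69.43% of the laminin beta level. LAMC1 held 99.81% of the gamma level by median length and 99.35% without a length. The median length is set by short annotated transcripts, with 741 bases for LAMC1 and 582 for LAMB2 beside 4136 for LAMB1. The other ratios and shares were recomputed with the same lengths after seeing the data, and those that turned or moved by over 1.5 times by coding or median length stand beside their values above. By canonical length ITGB1 was 6.18 times LAMC1 and 60.3 times ITGB5, and without a length ITGB3, ITGB5 and ITGB8 summed to 33.2% of ITGAV. Of the 10 highest genes per kilobase, 10 were shared by coding and canonical length, and 9 by median length and without a length.

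No paired analysis was possible because the values used are a mean over all 6 libraries, with none of a single labelled library. For the same reason the replicate block, leaving out each replicate, another normalization and the test without a filter on low counts were not run. A mean over 6 libraries gives no replicate error, and the genes under 20 rest on 1 to 96 reads.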
